A study of Mus musculus with 3 samples.

Results

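The genes described here code for the main proteins of the embryonic basement membrane and of the fibronectin matrix that adjoins it. They are Lama1, Lamb1 and Lamc1, Col4a1 and Col4a2, Nid1, Hspg2, Sparc and Fn1, which make 9 of the 32285 genes in the deposited count tables. They were chosen by name and not by their measured values. All 9 were found once each, with at least 202 UMIs (unique molecular identifiers, each a counted transcript) in every library.

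The study profiled dissociated mouse embryos by droplet single-cell RNA sequencing that reads transcripts from their 3′ ends. The groups were normal, untreated embryos of the ARC mouse strain taken at embryonic day E7.0, day E7.25 or day E7.5, the last of which was labelled as posterior and is called E7.5 posterior here. Each group is 1 library from 1 channel of a 10x Chromium chip, so no difference between days has a replicate check and no test or p-value is given. How many embryos were pooled into a library is not given in the sources used here, and the stage of the last library cannot be told apart from the part of the embryo that was taken.

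A basement membrane is a thin sheet that epithelia lay down on their basal side. Laminin trimers, made of an alpha, a beta and a gamma chain, polymerise on the cell surface through integrins and dystroglycan, and a collagen IV network gives the sheet its strength; nidogen and perlecan tie the networks together. In the gastrulating mouse embryo such a sheet lies between the epiblast and the visceral endoderm, it is breached at the primitive streak where epiblast cells leave the epithelium, and the emerging mesoderm migrates over a matrix rich in fibronectin.

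The positions of the genes follow GENCODE release M21 on GRCm38. The laminin chains lie apart, with Lama1 at chr17:67697259-67822647 on the plus strand, Lamb1 at chr12:31265234-31329644 on the plus strand and Lamc1 at chr1:153218922-153332786 on the minus strand. Nid1 lies at chr13:13437551-13512269 (plus), Hspg2 at chr4:137468769-137570630 (plus), Sparc at chr11:55394500-55423183 (minus) and Fn1 at chr1:71585520-71653200 (minus). The collagen IV genes are neighbours that point away from each other, with Col4a1 at chr8:11198423-11312826 on the minus strand and Col4a2 at chr8:11312805-11449287 on the plus strand. Their annotated 5′ ends overlap, a region far from the 3′ ends that the assay reads. Their promoters are printed here because this shared segment belongs to the gene pair whose levels ran closest together across lineages. Both are from RefSeq on GRCm38.p6, 5′ to 3′ on the strand of the gene, and the capitals mark the 78 bases that both windows hold, as reverse complements of each other, between positions 11312777 and 11312854.
Col4a1: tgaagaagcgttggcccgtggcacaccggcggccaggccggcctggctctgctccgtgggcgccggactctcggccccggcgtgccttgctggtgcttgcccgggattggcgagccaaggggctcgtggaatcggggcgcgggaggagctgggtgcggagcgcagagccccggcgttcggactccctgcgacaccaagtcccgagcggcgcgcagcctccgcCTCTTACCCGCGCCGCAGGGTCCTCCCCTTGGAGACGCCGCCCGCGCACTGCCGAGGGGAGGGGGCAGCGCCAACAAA
Col4a2: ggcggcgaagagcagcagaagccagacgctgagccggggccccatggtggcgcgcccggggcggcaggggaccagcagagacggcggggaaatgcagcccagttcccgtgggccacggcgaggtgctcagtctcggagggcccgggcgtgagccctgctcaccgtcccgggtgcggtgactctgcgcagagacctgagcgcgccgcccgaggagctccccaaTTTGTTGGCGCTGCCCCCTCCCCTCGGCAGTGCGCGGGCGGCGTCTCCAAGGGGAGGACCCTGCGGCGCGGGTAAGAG
The windows are chr8:11312777-11313076 on the minus strand for Col4a1 and chr8:11312555-11312854 on the plus strand for Col4a2, and the RefSeq starts lie 21 bases apart. G and C made up 74.0% of the Col4a1 window and 73.7% of the Col4a2 window, against a median of 52.7% over 32851 mouse promoter windows of the same length. GGGCGG on either strand occurred in the windows of 5 of the 6 genes with an entry (Hspg2, Col4a1, Col4a2, Lamb1 and Nid1, but not Sparc) and in 35.7% of all windows. The only such site of the Col4a1 window lies in the shared bases, so the same site is also counted for Col4a2. CCAAT on either strand occurred in Col4a1, Col4a2, Lamb1 and Nid1 and in 37.4% of all windows, and TATAAA in none of the 6 and in 13.6% of all windows. No entry was found for Lama1, Lamc1 and Fn1.

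After the filters the libraries held 7777, 4950 and 7868 cells in day order, with median depths of 11167, 8148 and 9025 UMIs, and pairs of libraries shared between 7 and 16 cell barcodes. Cells were clustered without any matrix gene and each cluster was likened to a cell type by marker genes. The 6 classes that carry most of the account are epiblast-like, mesoderm-like, definitive endoderm-like, visceral endoderm-like, extraembryonic mesoderm-like and trophoblast-like (extraembryonic ectoderm). The first is labelled epiblast and streak in figures but was made of epiblast clusters only. In day order its summed primitive streak markers stood at 495, 164 and 275 CPM, below the 1255, 728 and 550 CPM of mesoderm-like cells. Within the epiblast and mesoderm classes each library fell mainly into a cluster of its own, with 2821 of 2845, 1262 of 1321 and 1856 of 1956 mesoderm-like cells, in day order, and 2521 of 2709, 1505 of 1547 and 3439 of 3502 epiblast-like cells. Wherever 3 values stand without a day, they too are in day order. One more group, led by Fgfbp1, Krt19 and Pga5 and holding 287, 175 and 215 cells, was left unnamed because its 10 leading genes held more parietal endoderm than definitive endoderm markers. Among its top 100 genes 6 were definitive endoderm markers, and its summed definitive endoderm markers stood at 10026, 9403 and 8242 CPM, against 298, 490 and 250 CPM of parietal endoderm markers. The same definitive endoderm sum stood at 9416, 5000 and 8162 CPM in visceral endoderm-like cells and 1282, 1681 and 1801 CPM in definitive endoderm-like cells. That sum alone therefore does not tell definitive from visceral endoderm. Another unnamed group, led by Aldh1a2, Hoxb1 and Hes7, held 840 cells at E7.5 posterior and 44 or fewer at the other days. No cluster was parietal endoderm-like or primitive streak-like, so contrasts with those cells were not made. Levels are CPM, the UMIs of a gene scaled to a fixed total of UMIs of the same cells, with 95% intervals that cover counting error only, and classes with under 50 cells in a library are left out. Capture depends on the transcript, so levels are compared between cells for 1 gene and not between genes.

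Collagen IV transcripts were highest in visceral endoderm-like cells and the Fgfbp1-led group and, among named classes, lowest in trophoblast-like and epiblast-like cells. Col4a1, the alpha 1 chain of the network, stood at 241 CPM (interval 230.4 to 253.0), 340.2 CPM (325.4 to 355.5) and 238 CPM (220.9 to 256.8) in visceral endoderm-like cells. In epiblast-like cells of the same libraries it stood at 16.0 CPM (14.7 to 17.3), 23.0 (20.6 to 25.7) and 20.8 (19.3 to 22.3), and in mesoderm-like cells at 52.7, 62.4 and 57.7 CPM. Every visceral endoderm-like value was thus more than 10 times its epiblast-like counterpart, with log2 ratios of 3.92 (3.79 to 4.05), 3.88 (3.71 to 4.06) and 3.52 (3.37 to 3.67). Col4a2, whose alpha 2 chain joins the same trimer, ran in parallel at 128.0, 160.8 and 128.0 CPM in visceral endoderm-like cells, against 6.09, 9.35 and 8.09 CPM in epiblast-like cells. The Fgfbp1-led group held 193, 250.5 and 187 CPM of Col4a1. Trophoblast-like cells held only 7.63 CPM at E7.0 and 11.9 CPM at E7.25.

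Visceral endoderm-like cells therefore held far more of the collagen IV transcripts than their share of the library. At E7.25 they gave 50.2% (48.6 to 51.7) of all Col4a1 UMIs and 49.7% (47.4 to 52.0) of all Col4a2 UMIs from 13.3% of all UMIs. At E7.0 their shares were 30.7% and 32.9% from 7.0% of all UMIs, and in the posterior library 18.6% and 20.3% from 3.71%. Mesoderm-like cells gave the next largest named share at E7.25, 18.1% of Col4a1, and the largest at E7.0 (36.8%) and at E7.5 posterior (29.1%). A cluster of 245 visceral endoderm-like cells with a median of 0.145% mitochondrial UMIs and 3014 UMIs per cell held little of it, with 32.2 CPM of Col4a1 at E7.0 and 48.5 CPM in the posterior library; without that cluster the class stood at 258.8, 341.4 and 259.3 CPM.

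**Figure D1:**
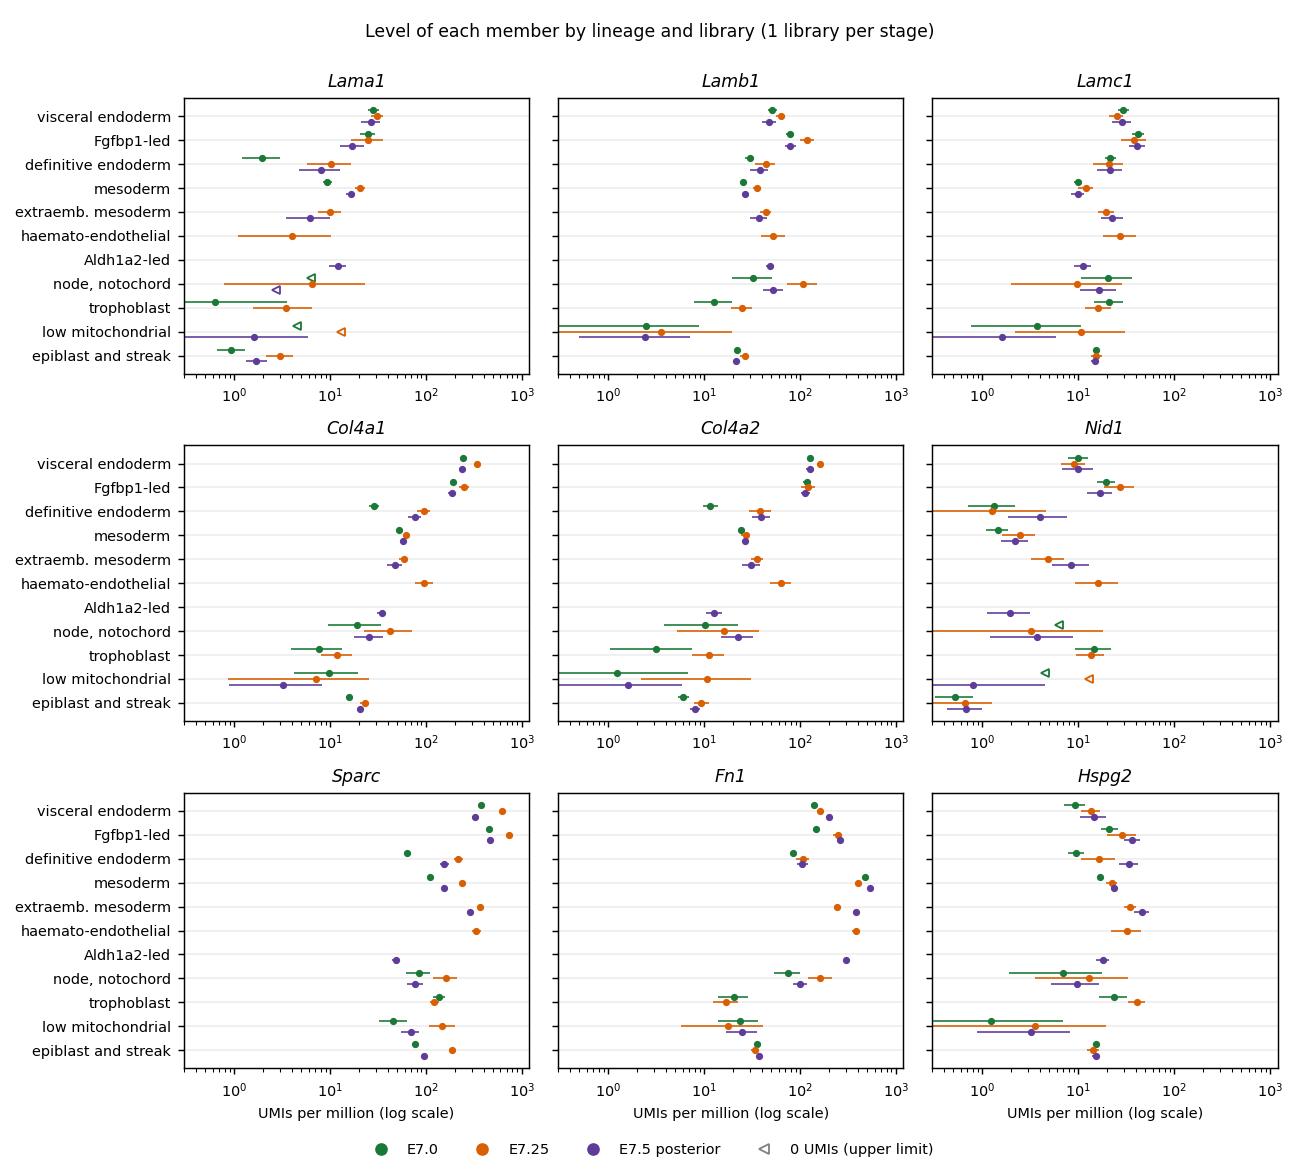
Level of each of the 9 genes (CPM, log axis) by lineage class, with 1 point per library and 95% Poisson intervals for counting error. Collagen IV points are highest in visceral endoderm-like cells and the Fgfbp1-led group, and Fn1 points in mesoderm-like cells.

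The laminin genes did not share 1 profile. Lama1, the alpha 1 chain, was nearly absent from epiblast-like cells, at 0.940 CPM (36 UMIs), 3.02 CPM (41 UMIs) and 1.71 CPM (64 UMIs). It stood at 28.4, 30.9 and 26.6 CPM in visceral endoderm-like cells and at 9.43, 20.7 and 16.4 CPM in mesoderm-like cells. The intervals of the 3 classes did not overlap in any library, and visceral endoderm-like cells exceeded epiblast-like cells by log2 ratios of 4.92 (4.40 to 5.47), 3.36 (2.86 to 3.88) and 3.96 (3.46 to 4.46). Lamb1 and Lamc1, which code for the beta 1 and gamma 1 chains of most early laminins, were measured in every class. Lamb1 stood at 78.6, 118 and 79.4 CPM in the Fgfbp1-led group, against 22.3, 26.4 and 21.8 CPM in epiblast-like cells. Lamc1 was lower in mesoderm-like cells (9.92, 11.9 and 9.86 CPM) than in epiblast-like cells (15.3, 15.5 and 14.9 CPM), and the log2 ratios of -0.63, -0.37 and -0.59 had intervals below 0 in all 3 libraries.

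The transcripts of the chains therefore stood in different proportions in different cells. A ratio of 2 genes in the same cells can be compared across classes whatever the capture of each transcript. For each Lamc1 UMI, mesoderm-like cells had 0.95 (0.82 to 1.10), 1.73 (1.40 to 2.15) and 1.66 (1.38 to 2.01) Lama1 UMIs, and visceral endoderm-like cells had 0.96, 1.23 and 0.94. Epiblast-like cells had 0.06 (0.04 to 0.09), 0.20 (0.14 to 0.27) and 0.11 (0.09 to 0.15), below both classes in each library. Definitive endoderm-like cells lay between, at 0.09, 0.48 and 0.38. Lamb1 per Lamc1 was less spread, at 2.56, 2.99 and 2.74 in mesoderm-like cells against 1.45, 1.71 and 1.46 in epiblast-like cells, and it was highest among classes with at least 50 UMIs of both genes in the Aldh1a2-led group at E7.5 posterior, at 4.38 (3.48 to 5.56). Col4a1 per Col4a2 stood at 2.02, 2.10 and 2.04 over all kept cells, with 2.62, 2.46 and 2.57 in epiblast-like cells and 1.89, 2.12 and 1.86 in visceral endoderm-like cells.

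**Figure D2:**
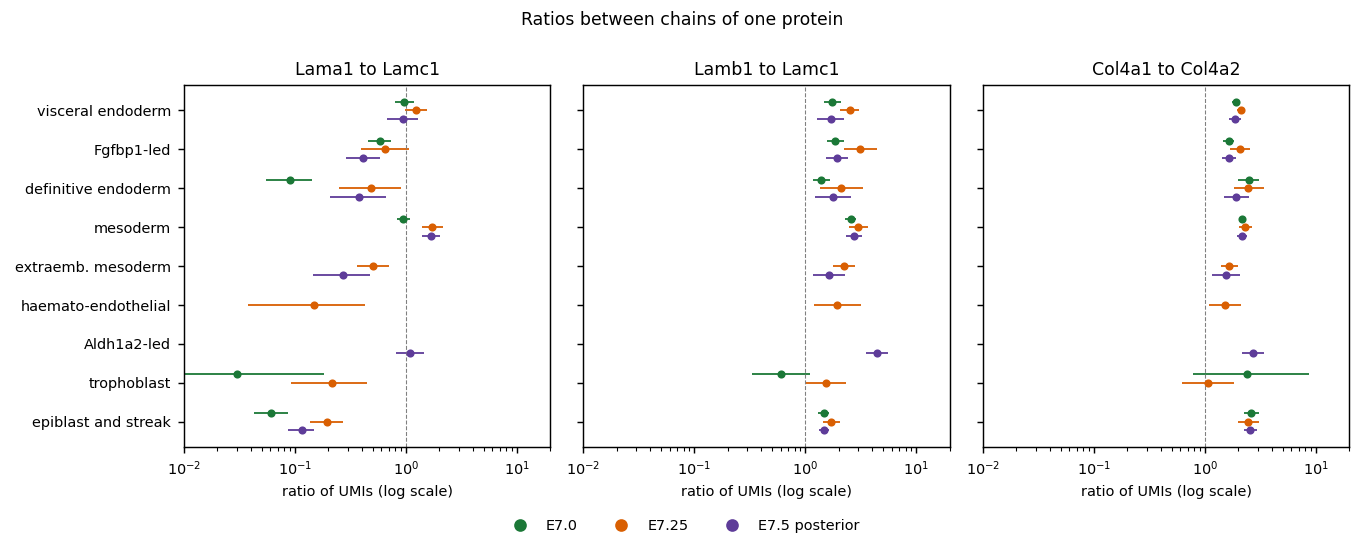
Ratio of UMIs of chain partners in the same cells (log axis) by lineage class and library, with 95% binomial intervals. Node-like cells and the unnamed group of few mitochondrial UMIs are not drawn. Among the classes drawn, Lama1 per Lamc1 is lowest in epiblast-like, trophoblast-like and haemato-endothelial-like cells, the last on 4 Lama1 UMIs at E7.25. Col4a1 per Col4a2 stays near 2 in most classes.

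The low Lama1 of epiblast-like cells did not extend to every laminin alpha chain. Lama5, the alpha 5 chain, stood at 33.8, 29.6 and 27.9 CPM in visceral endoderm-like cells and 5.27, 4.54 and 2.61 CPM in mesoderm-like cells, against 17.3, 16.3 and 15.5 CPM in epiblast-like cells. Across those 3 classes mesoderm-like cells were thus lowest for Lama5 and epiblast-like cells lowest for Lama1. Lama4, the alpha 4 chain of vascular basement membranes, stood at 14.0 and 11.5 CPM in the extraembryonic mesoderm-like cells of the E7.25 and E7.5 posterior libraries and at 21.2 CPM in haemato-endothelial-like cells of E7.25. In every other class it was at or below 1.72 CPM.

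The linker genes had profiles of their own. Nid1, whose product nidogen-1 binds the laminin gamma 1 chain and collagen IV, was the scarcest of the 9 transcripts, with 281, 203 and 202 UMIs per library. It stood at 19.5, 27.3 and 16.7 CPM in the Fgfbp1-led group, at 9.98, 8.93 and 10.0 CPM in visceral endoderm-like cells and at 0.522, 0.663 and 0.668 CPM in epiblast-like cells. Trophoblast-like cells, low in collagen IV and Lama1, held 14.6 CPM of Nid1 at E7.0 and 13.5 CPM at E7.25, on 23 and 35 UMIs. Its paralogue Nid2 stood at 85.2, 87.5 and 88.0 CPM in visceral endoderm-like cells, against 9.95, 7.88 and 9.99 CPM in epiblast-like cells.

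Hspg2, which codes for the heparan sulfate proteoglycan perlecan, was the one gene of the 9 that visceral endoderm-like cells did not hold at a higher level than epiblast-like cells. It stood at 9.16, 13.6 and 14.5 CPM in visceral endoderm-like cells, against 15.3, 14.4 and 15.3 CPM in epiblast-like cells, and only the E7.0 interval of the log2 ratio (-0.74, -1.13 to -0.37) lay below 0. The highest values were in extraembryonic mesoderm-like cells, at 34.9 CPM (E7.25) and 45.8 CPM (posterior), in trophoblast-like cells of E7.25, at 40.8 CPM, and in the Fgfbp1-led group of the posterior library, at 36.7 CPM. Mesoderm-like cells gave 42.9%, 27.2% and 28.8% of its UMIs, from 38.5%, 26.2% and 24.0% of all UMIs. Epiblast-like cells gave 36.8%, 20.8% and 36.8%, from 36.6%, 31.1% and 48.0% of all UMIs, so that their share fell short of their size in the later libraries.

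Fn1, which codes for fibronectin, was highest in mesoderm-like cells but was not confined to them. It stood at 477 CPM (470.6 to 484.1), 407 CPM (395.5 to 419.0) and 539.9 CPM (529.5 to 550.5) in mesoderm-like cells. Epiblast-like cells held 35.6, 33.6 and 37.2 CPM, so that the log2 ratios were 3.75 (3.67 to 3.83), 3.60 (3.46 to 3.74) and 3.86 (3.78 to 3.94). Mesoderm-like cells gave 82.1%, 55.0% and 59.8% of all Fn1 UMIs, from 38.5%, 26.2% and 24.0% of all UMIs. A further 15.8% lay in the extraembryonic mesoderm-like cells of E7.25 and 14.8% in the Aldh1a2-led group of the posterior library. Visceral endoderm-like cells held 139, 160.5 and 201 CPM, and trophoblast-like cells only 20.4 and 16.9 CPM at E7.0 and E7.25.

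Sparc codes for a collagen-binding glycoprotein that helps collagen IV assemble. It was found in every class and was highest in the Fgfbp1-led group, at 459.8, 733 and 467 CPM, and in visceral endoderm-like cells, at 379, 622 and 323 CPM. Extraembryonic mesoderm-like cells held 369.6 CPM (E7.25) and 289.8 CPM (posterior). In that class the summed visceral endoderm markers stood at 1245 CPM at E7.25, against 180 CPM in mesoderm-like cells of the same library, and at 54.6 CPM in the posterior library; their part in its levels was not tested. Its E7.25 cells include a cluster of 88 with a median of 29610 UMIs, which held 293 CPM of Sparc. Mesoderm-like cells held 110.3, 236 and 156 CPM and epiblast-like cells 77.8, 185 and 96.1 CPM, both highest at E7.25. The lowest value among classes at E7.5 posterior was that of the Aldh1a2-led group, at 48.5 CPM.

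**Figure D3:**
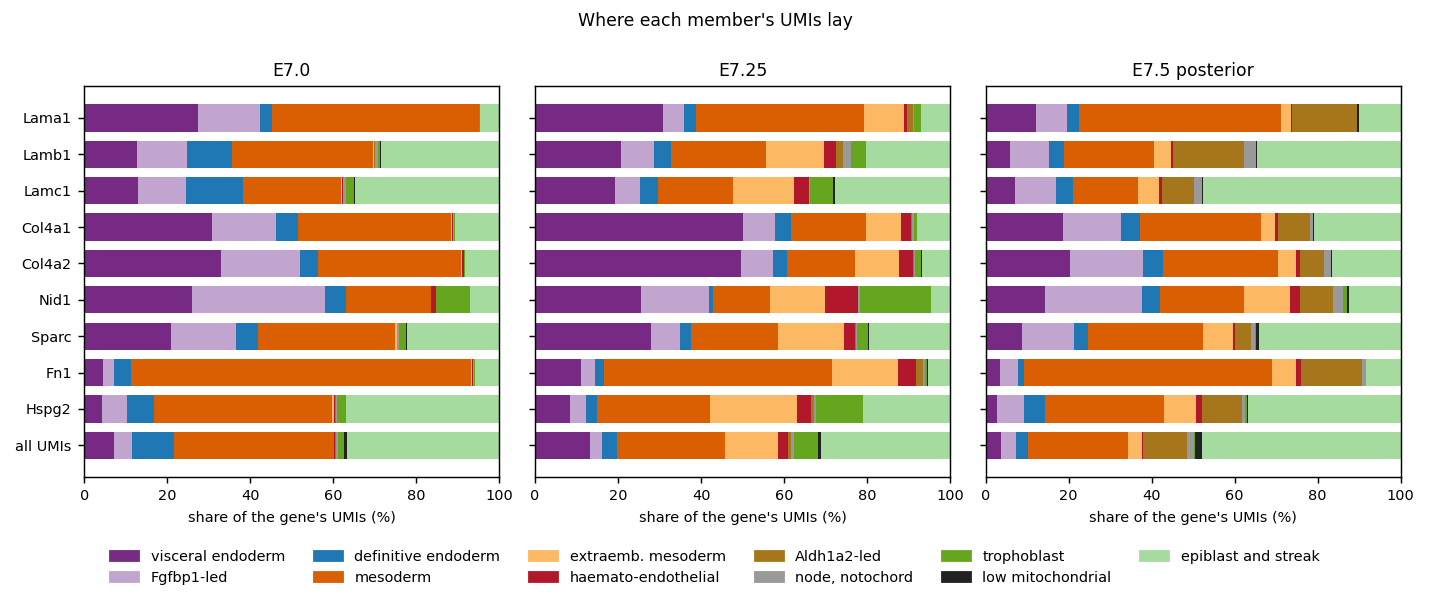
Share of each gene's UMIs (%) that lay in each lineage class, by library, beside the share of all UMIs that the class held. Mesoderm-like cells give 82.1% of Fn1 UMIs at E7.0 and visceral endoderm-like cells give 50.2% of Col4a1 UMIs at E7.25.

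The counts that follow call a gene when its level differed at least 2-fold in the same direction in every library with 50 cells of both groups, and set it beside the genes with at least 20 CPM in at least 1 of the groups compared. Between 4 and 9 of the 9 genes passed that minimum in a given comparison, while the counts are over all 9. In visceral endoderm-like over epiblast-like cells 7 of the 9 were higher (Lama1, Lamb1, Col4a1, Col4a2, Nid1, Sparc and Fn1), where 19.5% of 6750 genes were, so a large part of the transcriptome differed that far. In mesoderm-like over epiblast-like cells 5 were higher (Lama1, Col4a1, Col4a2, Nid1 and Fn1), where 3.39% of 5814 genes were. In definitive endoderm-like over epiblast-like cells Lama1 and Fn1 were higher, where 2.9% of 6008 genes were; this count ran from 0 to 5 over the other ways of processing. In extraembryonic mesoderm-like over mesoderm-like cells, compared in the 2 later libraries, none of the 9 was higher, where 2.93% of 5911 genes were (2, Lamc1 and Nid1, without the cluster of 88 deep cells at E7.25), and Lama1 was lower, where 1.57% were, a call lost when the libraries were clustered apart or at resolution 2. Lama1 stood there at 10.0 and 6.16 CPM in extraembryonic mesoderm-like cells, against 20.7 and 16.4 CPM in mesoderm-like cells.

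**Figure D4:**
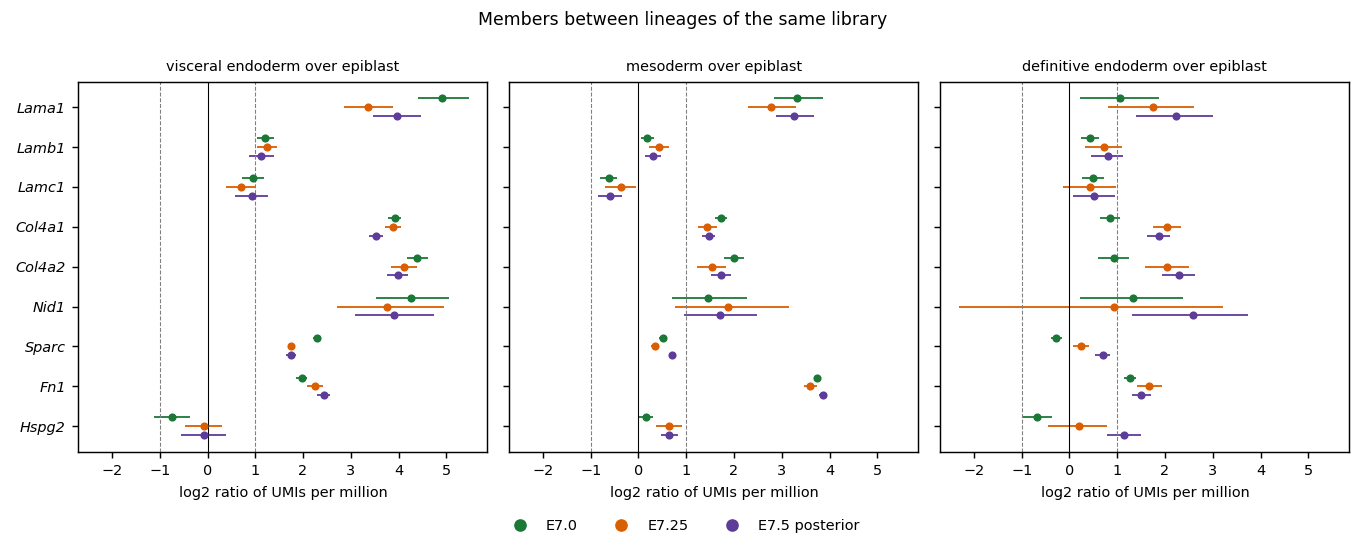
Log2 ratio of each gene between lineage classes within each library, with 95% binomial intervals for counting error. Ratios of visceral endoderm-like over epiblast-like cells reach 4.92 for Lama1, and mesoderm-like over epiblast-like ratios lie near 3.7 for Fn1 and below 0 for Lamc1.

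Set against all other cells of the same library, epiblast-like cells were at least 2-fold lower for Lama1, Col4a1, Col4a2, Nid1 and Fn1, where 5.06% of 6088 genes were. Mesoderm-like cells were higher for Fn1, where 1.6% of 6054 genes were, and for 1 gene more under 5 of the other settings. Visceral endoderm-like cells were higher for Lama1, Col4a1, Col4a2, Nid1 and Sparc, where 16.8% of 6738 genes were; this count fell to 2 with at most 5% mitochondrial UMIs, where the posterior Lama1 ratio turned to -0.15, and to 3 with predicted doublets kept. The Fgfbp1-led group was higher for 6 of the 9, all but Lama1, Fn1 and Hspg2, where 8.21% of 6529 genes were. Its summed visceral endoderm markers stood at 6949, 8399 and 4101 CPM, against 24542, 29593 and 26493 CPM in visceral endoderm-like cells; the part that cells of that kind have in its matrix levels was not tested. Trophoblast-like cells were higher for Nid1, where 6.92% of 6257 genes were, and lower for Lama1, Col4a1, Col4a2 and Fn1, where 7.22% were. These counts describe the clusters and are no test of them.

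Counted per cell, visceral endoderm-like cells also held the most of these transcripts at once among the named classes. To put cells on 1 depth, each was thinned to 5000 UMIs and shallower cells were left out, from 57 to 202 per library in the epiblast-like, mesoderm-like and visceral endoderm-like classes. The loss was uneven, as 524 of 661, 620 of 721 and 261 of 355 visceral endoderm-like cells were kept. The cells kept were 2788 of 2845, 1229 of 1321 and 1839 of 1956 for mesoderm-like cells. For epiblast-like cells they were 2507 of 2709, 1456 of 1547 and 3310 of 3502. An average of 3.09, 3.39 and 3.1 of the 9 genes was then detected per visceral endoderm-like cell, with 3.17, 3.52 and 3.35 per cell of the Fgfbp1-led group, 1.86, 2.21 and 2.12 per mesoderm-like cell and 0.838, 1.17 and 0.903 per epiblast-like cell. No transcript of the 9 was found in 2.10% of visceral endoderm-like cells at E7.0, in 0 of 620 such cells of the E7.25 library (which allows a share of up to 0.484%) and in 1.53% of those of the posterior library, against 39.9%, 22.9% and 37.0% of epiblast-like cells. Thinning to 3000 UMIs kept 587, 706 and 308 visceral endoderm-like cells, with averages of 2.08, 2.61 and 2.03. The averages were then 1.39, 1.61 and 1.57 in mesoderm-like cells and 0.517, 0.787 and 0.579 in epiblast-like cells. The shares without a transcript rose to 9.88%, 1.70% and 10.1% of visceral endoderm-like cells and 57.8%, 39.6% and 53.5% of epiblast-like cells.

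Fn1 was detected in 86.2%, 77.5% and 88.5% of thinned mesoderm-like cells, against 14.8%, 14.5% and 15.6% of epiblast-like cells. Before thinning the shares were 96.6%, 86.8% and 94.9% of mesoderm-like cells, at median depths of 11913, 8280 and 8872 UMIs, and 32.5%, 22.9% and 27.6% of epiblast-like cells, at 11108, 8380 and 9676.5 UMIs. The lowest share, read here as a ceiling for free RNA, was that of trophoblast-like cells, at 3.06% at E7.0 and 5.68% at E7.25. Col4a1 was detected in 68.1%, 79.5% and 67.8% of thinned visceral endoderm-like cells and in 8.10%, 11.1% and 9.85% of epiblast-like cells, against 5.10% and 6.82% of trophoblast-like cells at the first 2 days. Unthinned, the Col4a1 shares were 73.4%, 89.2% and 65.4% of visceral endoderm-like and 18.2%, 17.8% and 18.9% of epiblast-like cells. At both days the thinned epiblast-like and trophoblast-like intervals of Col4a1 overlapped. The summed visceral endoderm markers in epiblast-like cells, another gauge of free RNA, stood at 76.9, 183 and 46.5 CPM.

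Epiblast-like cells with a UMI of T, the brachyury gene that marks the primitive streak, differed from those without. After thinning, Fn1 stood at 64.6 CPM in the 322 cells with T, against 30.8 CPM in the 2185 without, at E7.0. It stood at 44.4 CPM in 162 cells with T, against 31.7 CPM in 1294 without, at E7.25, and at 63.7 CPM in 757 with T, against 30.004 CPM in 2553 without, at E7.5 posterior. The log2 ratios were 1.07 (0.74 to 1.39), 0.49 (-0.07 to 1.01) and 1.09 (0.85 to 1.32), so the E7.25 interval held 0. Lamb1 was higher in cells with T at E7.0 (32.9 against 20.4 CPM) and E7.5 posterior (32.8 against 17.8 CPM). Sparc was lower in cells with T in all 3 libraries, at 47.8, 145.7 and 80.6 CPM, against 84.9, 189 and 97.2 CPM without. Lama1, Nid1 and Col4a2 had 28 or fewer UMIs in the cells with T of each library, and for Lamc1, Col4a1 and Hspg2 every interval held 0. The split was chosen after seeing the data, and a UMI of T is missed in many cells that express it.

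The E7.25 library stood apart for several of these genes. Over all kept cells Sparc stood at 127.9 CPM (125.7 to 130.04), 295 CPM (289.9 to 300.1) and 135 CPM (132.6 to 137.8). It was the only one of the 9 past 2-fold between libraries, with a log2 ratio of 1.21 (1.17 to 1.24) for E7.25 over E7.0, where 2.82% of 5577 genes were at least 2-fold higher and 1.51% lower. For E7.5 posterior over E7.25 it fell by 1.13 on the log2 scale (interval -1.16 to -1.09), where 3.08% of 5610 genes were lower and 0.998% higher. None of the 9 passed 2-fold for E7.5 posterior over E7.0, where 0.569% of 5270 genes were higher and 0.949% lower. These comparisons share libraries, so E7.25 enters the first and second alike.

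Col4a1 had the same shape at a smaller size, at 55.0, 90.3 and 47.7 CPM, and so did Col4a2 at 27.3, 43.1 and 23.4 CPM, Lama1 at 7.27, 13.4 and 8.12 CPM, Nid1 at 2.69, 4.64 and 2.59 CPM and Lamb1 at 28.6, 40.5 and 30.1 CPM. Lamc1 changed little, at 16.1, 17.3 and 15.003 CPM, Hspg2 stood at 15.2, 21.4 and 19.9 CPM and stayed above its E7.0 level in the posterior library, and Fn1 alone was lowest at E7.25, at 223.9, 193.9 and 217 CPM. The median log2 ratio of the 9 was 0.66 for E7.25 over E7.0 and -0.72 for E7.5 posterior over E7.25, beside 0.12 and -0.10 over all genes tested. Visceral endoderm-like cells held 7.0%, 13.3% and 3.71% of all UMIs, the order in which Col4a1 ran. Col4a1 within that class was also highest at E7.25, at 241, 340 and 238 CPM. Leaving the class out removes its share and its level together, so the part of either in the difference was not tested. Leaving out trophoblast-like and visceral endoderm-like cells, the E7.25 over E7.0 log2 ratio of Col4a1 was 0.40 in place of 0.71, while that of Sparc was 1.23. Without the same cells Sparc fell by 0.99 for E7.5 posterior over E7.25, short of 2-fold. Scaling by TMM moved every E7.25 over E7.0 ratio by -0.17 and left Sparc past 2-fold.

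Differences between libraries were seen within classes as well. For E7.25 over E7.0, Lama1 and Sparc passed 2-fold in epiblast-like cells, where 1.12% of 5264 genes did, and again in mesoderm-like cells, where 1.78% of 5333 genes did. Sparc log2 ratios were 1.25 (1.17 to 1.33) in epiblast-like, 1.09 (1.02 to 1.16) in mesoderm-like, 0.71 (0.64 to 0.79) in visceral endoderm-like and -0.16 in trophoblast-like cells. With TMM scaling the mesoderm-like ratios were 0.94 for Sparc and 0.98 for Lama1, short of 2-fold. None of the 9 passed 2-fold in visceral endoderm-like cells, where 1.37% of 5914 genes did. Whether the classes differ in this ratio beyond the spread between embryos cannot be told with 1 library per day, and the depth and clusters of the libraries differ as given above.

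Definitive endoderm-like cells showed the widest differences between days. For E7.25 over E7.0, 4 of the 9 passed 2-fold, where 4.59% of 5553 genes did. Col4a1 stood at 28.8, 95.1 and 76.2 CPM, Col4a2 at 11.6, 38.7 and 39.7 CPM, Lama1 at 1.97, 10.1 and 8.02 CPM and Sparc at 64.4, 219 and 156 CPM. For E7.5 posterior over E7.0, 6 passed (these 4 with Nid1 and Hspg2), where 2.26% of 5410 genes did. This count was 2 with a minimum of 500 detected genes per cell and 0 with a minimum of 2000, which left no definitive endoderm-like class. Hspg2 stood at 33.9 CPM at E7.5 posterior, against 9.56 CPM at E7.0, with a log2 ratio of 1.83 (1.38 to 2.27). For E7.5 posterior over E7.25, Hspg2 (1.04, 0.38 to 1.74) and Nid1 passed, where 1.54% of 5648 genes did, but Nid1 rested on 9 UMIs in the posterior library and 2 in the E7.25 library and its interval, -0.61 to 4.91, held 0; this count too was 0 under both of those minimums.

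The makeup of that class moved with these values. Its summed definitive endoderm markers stood at 1282, 1681 and 1801 CPM, and its epiblast markers at 1478, 1213 and 1113 CPM. At E7.0 the definitive endoderm sum was thus below the epiblast sum and below the streak and mesoderm sums that follow. Its summed primitive streak markers stood at 1432, 555 and 634 CPM in day order and its nascent mesoderm markers at 1342, 456 and 480 CPM, so both were highest at E7.0, where Col4a1, Col4a2, Lama1 and Sparc were lowest; Lamc1 stood at 21.6, 20.9 and 21.4 CPM and Nid1 at 1.31, 1.27 and 4.01 CPM. Its visceral endoderm markers stood at 90.5, 183 and 69.1 CPM, near those of epiblast-like cells in the same libraries (76.9, 183 and 46.5 CPM) and far below visceral endoderm-like cells. Of the 14 visceral endoderm markers, Spp2 was at 0 at E7.0, and Spp2 and Lgals2 at E7.5 posterior. The part that the mixture of cells within the class has in the difference was not tested.

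**Figure D5:**
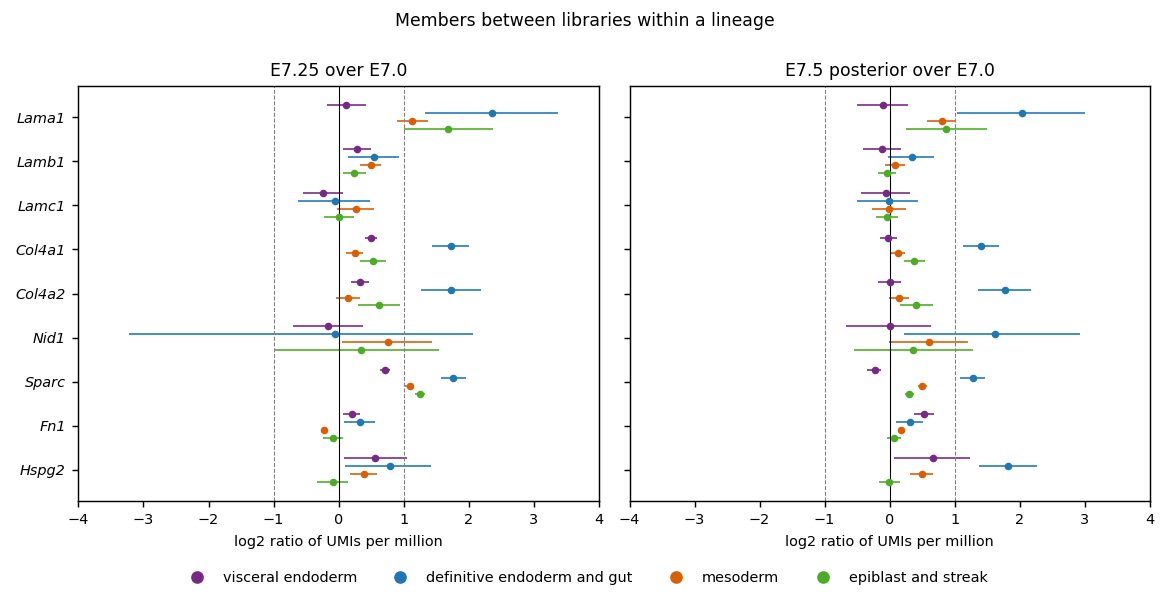
Log2 ratio of each gene over its E7.0 level within lineage classes, for E7.25 and for E7.5 posterior, with 95% binomial intervals for counting error. Sparc lies past 2-fold for E7.25 over E7.0 in epiblast-like and mesoderm-like cells, and 4 genes do so in definitive endoderm-like cells.

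Genes that act with these components differed between the same classes. Of the other basement membrane genes with 20 CPM or more in a class, 5 of 7 were at least 2-fold higher in visceral endoderm-like than in epiblast-like cells in all 3 libraries. They were led by Fbln1, a fibulin found in basement membranes (122, 144.7 and 139 against 21.7, 28.4 and 31.1 CPM), and by Agrn, which codes for the proteoglycan agrin (90.2, 100.2 and 105 against 13.7, 22.2 and 20.2 CPM). Of the genes for collagen folding, crosslinking and export, 11 of 17 were higher and none lower. Over all genes of that contrast, under the same minimum, 19.5% were higher and 8.99% lower. Nid2, Fras1 and Smoc1, and P3h2, Crtap, Plod1 and Plod3 of the collagen list, passed the minimum through visceral endoderm-like cells alone. Such genes could hardly be called lower, so neither count shows a direction for its list. Serpinh1, the collagen chaperone HSP47, passed through both classes and was higher, at 242, 192 and 243 against 72.7, 49.8 and 83.1 CPM. In mesoderm-like over epiblast-like cells 2 of 12 of the collagen list were higher, Serpinh1 and P3h2, where 3.39% of all genes were. P3h2 passed there through mesoderm-like cells alone. Col18a1, the collagen XVIII chain, was lower in mesoderm-like cells, at 11.4, 18.5 and 9.54 CPM, against 60.8, 90.0 and 68.1 CPM in epiblast-like cells, while Fbln1 was higher. Of 26 genes of the interstitial matrix 4 reached 20 CPM in either class. Gpc3, a cell-surface glypican, stood at 206, 205.7 and 253 CPM in mesoderm-like cells, against 62.1, 60.1 and 73.5 CPM in epiblast-like cells. Vcan, the proteoglycan versican, Fbn2, which codes for fibrillin-2, and Col13a1, a transmembrane collagen, passed the minimum through mesoderm-like cells alone, which favours that direction, so no count is given for the list.

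Receptor genes separated the classes by integrin alpha chain. Itga6, part of the laminin receptors, stood at 7.71, 7.06 and 5.22 CPM in mesoderm-like cells and 4.92, 6.70 and 5.17 CPM in visceral endoderm-like cells, against 27.2, 36.0 and 31.8 CPM in epiblast-like cells. Itga5, part of the main fibronectin receptor, stood at 20.7, 26.3 and 16.9 CPM in mesoderm-like cells and 29.8, 57.2 and 25.2 CPM in visceral endoderm-like cells, against 4.96, 10.53 and 5.21 CPM in epiblast-like cells. Neither class overlapped with epiblast-like cells for either gene, and the directions were opposite. Itgb1, the beta chain that both share, stood between 62.9 and 162 CPM in these 3 classes. Of the receptor genes measured, 1 of 8 was higher and 3 lower in mesoderm-like than in epiblast-like cells, where 3.39% of all genes were higher and 3.37% lower. In visceral endoderm-like cells 2 of 9 were higher, close to the 19.5% of all genes, and 3 were lower, where 8.99% of all genes were. In both contrasts Itga5 passed the minimum of 20 CPM only through the class where it was higher, and Itga6 only through epiblast-like cells. Each case favours the direction called, so the receptor counts do not show a direction for the list. Among the proteases and their inhibitors, Mmp14 codes for a membrane-bound protease that cleaves matrix. It stood at 39.0, 42.6 and 40.3 CPM in mesoderm-like cells, against 15.8, 16.3 and 15.1 CPM in epiblast-like cells. Mmp14 passed the minimum through mesoderm-like cells alone, so no count is given for that list.

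Across the 27 profiles of a class in a library, among 4737 genes, the gene most like Col4a1 was Col4a2 (Pearson r = 0.957 of log2(CPM + 1)), and the reverse held too. The gene most like Lama1 was Col4a1 (0.857), that most like Fn1 was Phldb2 (0.927) and that most like Nid1 was Jak1 (0.939). Lamb1 was closest to Wnk1 (0.944), Lamc1 to Actn4 (0.922), Sparc to Tmem9 (0.894) and Hspg2 to Pom121 (0.912). Among the 9, correlations ran from 0.352 between Fn1 and Lamc1 to 0.957. Profiles of 1 library share its depth and handling, and without the unnamed group of few mitochondrial UMIs the nearest genes of Col4a1, Col4a2, Lama1, Nid1 and Fn1 were the same over 24 profiles, while those of Lamb1, Lamc1, Sparc and Hspg2 were others. Across single cells of a class the correlations between members were weak, with Spearman values between -0.13 and 0.25, and in counts this sparse they are no finding.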

How the data were processed

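The data are UMI counts per gene and cell barcode from 3 libraries of dissociated mouse embryos, deposited by the authors as filtered 10x matrices; per the file headers they were made with Cell Ranger 6.0.1, and the genome build is not given in the sources used here. Of 10232, 6173 and 11468 barcodes, those with at least 1000 detected genes and at most 10% mitochondrial UMIs were kept (7941, 5194 and 8438). A reimplementation of Scrublet marked 164, 244 and 570 doublets, which were removed; at E7.5 posterior the automatic threshold marked only 24, so a rate of 0.8% per 1000 cells was used. Counts of the 3 libraries were log-normalised to 10000 per cell. The 2000 most variable genes of each library were pooled, and any matrix gene was taken out. On these genes the libraries were clustered together by 30 principal components, 15 neighbours and Leiden (leidenalg 0.10.2) at resolution 1. A cluster was named from at least 3 markers among its top 100 genes. UMIs were summed per library and class and scaled to CPM. Intervals are exact Poisson for levels, Clopper-Pearson for shares and conditional binomial for ratios, at 95%, for counting error only, since amplified molecules and pooled embryos are not independent replicates. Every call means at least 2-fold; no test was made, as each group is 1 library. The ratio code was tested on simulated data. The genes named are the 9 chosen ones, the most abundant called genes of each further list, at most 4, and the genes of most similar profile, along with some receptor and laminin genes of those lists named for contrast after their values were seen. Genes and lists were chosen with earlier results of these data known. Of 32285 gene IDs, 32158 matched GENCODE M21. TMM factors came from edgeR 4.0.16, as an alternative.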

Additional observations from a re-analysis of the deposited data

Results flagged for a closer look

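The 9 genes were also counted in the barcodes that the filters left out, data that no comparison above uses. Their summed level there was 557 CPM over 2455 barcodes at E7.0, 869 CPM over 1223 barcodes at E7.25 and 698 CPM over 3600 barcodes at E7.5 posterior, against 504, 719 and 499 CPM in the kept cells of the same libraries. The left-out barcodes hold shallow cells, cells with many mitochondrial UMIs and marked doublets, and which of these carries the signal was not tested.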

How the results depend on the processing

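Of 32 counts of called genes, 18 stayed within 1.5 times their value under all alternatives run. Those of mesoderm-like over epiblast-like (4 to 5 genes) and visceral endoderm-like over epiblast-like cells (5 to 7 genes) were among them, and Sparc for E7.25 over E7.0 stayed between 1.03 and 1.24 on the log2 scale. The classes themselves changed with the setting. With 50 components 92 mesoderm-like cells were left at E7.25, against 1321 as reported. With libraries clustered apart E7.0 had 1653 mesoderm-like and 3262 epiblast-like cells, against 2845 and 2709. These counts therefore do not rest on the same cells throughout. The counts that moved follow by setting, each against the value reported; the cause was not tested. Definitive endoderm-like over epiblast-like cells, higher (2 as reported), gave 5 with a minimum of 500 detected genes, 4 with each cell weighted equally, 1 with at most 5% mitochondrial UMIs, with matrix genes allowed in clustering, at resolution 2 or with each library clustered by itself, and 0 with predicted doublets kept or 50 principal components. Extraembryonic mesoderm-like over mesoderm-like cells, higher (0 as reported), gave 1 with a minimum of 2000 or 500 genes, with matrix genes allowed and with 50 components, and 2 with 5% mitochondrial UMIs, with doublets kept and without the cluster of over 2 times the median depth; lower (1) gave 0 at resolution 2 and with libraries clustered apart. Mesoderm-like cells over the rest, higher (1), gave 2 with 2000 genes, 5% mitochondrial UMIs, resolution 2, 50 components and libraries clustered apart. Visceral endoderm-like cells over the rest, higher (5), gave 2 with 5% mitochondrial UMIs, where 106 such cells were left at E7.5 posterior and Lama1 there turned to -0.15, and 3 with doublets kept. Extraembryonic mesoderm-like cells over the rest, higher (0), gave 1 with 5% mitochondrial UMIs, doublets kept, equal weights and without the deep cluster, and definitive endoderm-like cells (0) gave 1 with 500 genes. Sparc as the 1 gene lower over all cells for E7.5 posterior over E7.25 became 2 genes with 5% mitochondrial UMIs, 3 with equal weights and 0 when trophoblast-like and visceral endoderm-like cells were left out.

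Within classes, E7.25 over E7.0 gave 1 higher (8 as reported) and 1 lower (0) with 2000 genes, a setting that left no definitive endoderm-like class. E7.5 posterior over E7.25, higher (2), gave 0 with 2000 or 500 genes, resolution 2 or libraries clustered apart and 1 with matrix genes allowed; lower (0) gave 1 with 500 genes, 50 components or equal weights, 3 at resolution 2 or with libraries apart, and 5 with 5% mitochondrial UMIs. E7.5 posterior over E7.0, higher (6), gave 0 with 2000 and 2 with 500 genes; lower (0) gave 1 with 2000 genes, resolution 2 or libraries apart and 2 with 5% mitochondrial UMIs. Values that changed sign were mostly of definitive endoderm-like cells. Nid1 for E7.5 posterior over E7.25 became -0.31 with 500 genes and -0.72 with libraries apart. Against the rest with 500 genes, the E7.0 log2 ratios became 0.067 for Lama1, 0.40 for Col4a1, 0.55 for Col4a2, 1.37 for Nid1 and 0.54 for Sparc, and Nid1 at E7.25 became 1.62, or 2.77 with libraries apart, where Fn1 at E7.5 posterior became 0.32. Fn1 over epiblast-like cells became -0.00021 at resolution 2 and -0.19 with 50 components at E7.0, and -0.094 with 50 components at E7.5 posterior. TMM factors, scaling without mitochondrial and ribosomal genes, and leaving out clusters of few mitochondrial UMIs, an alternative added after seeing the data, moved no count past 1.5 times. No paired analysis was possible because each group has 1 library and leaving out a replicate would leave none. Contrasts with primitive streak-like and parietal endoderm-like cells could not be run for want of such clusters. Depth limits Nid1 and Lama1 most, since a class can rest on under 50 of their UMIs.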

Other observations

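Small classes added 2 patterns that the comparisons do not use. Node-like cells, with 60, 54 and 196 cells in day order, held 32.8, 107 and 52.4 CPM of Lamb1 but 0, 2 and 0 UMIs of Lama1. A count of 0 at these depths allows up to 5.17 CPM at E7.0 and 2.25 CPM at E7.5 posterior. Their Lama5, another alpha chain, stood at 29.3, 42.1 and 19.5 CPM. Haemato-endothelial-like cells, 115 at E7.25, held 96.1 CPM of Col4a1, 63.7 CPM of Col4a2, 384 CPM of Fn1 and 16.2 CPM of Nid1, but 4.05 CPM (1.10 to 10.4) of Lama1. Epiblast-like cells of that library held 23.0 CPM of Col4a1 and 33.6 CPM of Fn1.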
